A study of Canis lupus familiaris with 18 samples.

Results

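Ezrin (EZR), radixin (RDX), moesin (MSN) and merlin (NF2) are 4 of the 15115 genes named on the array, and were described in 18 canine primary osteosarcomas, malignant tumours of bone. All probe sets that the platform annotation gives to exactly 1 of these 4 genes were taken, which gave 13 of its 43035 probe sets: 3 for EZR, 3 for RDX, 4 for MSN and 3 for NF2. A probe set is a group of short oligonucleotides whose hybridisation signals are summarised as 1 value. Of the 13, 12 passed a filter on low mean signal. The exception was the NF2 probe set CfaAffx.19126.1.S1_at. The genes were chosen from earlier results of these data, in which the difference of RDX between the serum alkaline phosphatase (ALP) groups had been named, so member values in that contrast are a description with no test.

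The 9 normal ALP tumours came from dogs with a normal serum ALP concentration, and the 9 increased ALP tumours from dogs with an increased one. All 18 were canine osteosarcoma tissue that was snap frozen and handled alike before total RNA was taken, with 1 array per tumour. The labels name no breed, age, tumour site, drug or allele, and the study held no reference tissue. Because the tissue was whole tumour, fewer cells of a type and less RNA per cell cannot be told apart in any value below.

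Ezrin, radixin and moesin are close relatives that tie actin filaments beneath the plasma membrane to membrane proteins. Their FERM domain binds the membrane partner and their tail binds actin, and each protein opens for binding when it meets a membrane phosphoinositide and is phosphorylated near its end. Merlin shares the FERM domain, lacks the usual actin-binding tail and acts as a tumour suppressor upstream of the Hippo kinases. Ezrin has been studied in osteosarcoma of dogs, mice and people for its part in metastasis.

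Arrays were alike in scale, with medians between 6.25 and 6.31 and correlations between arrays from 0.929 to 0.982. Of 15 osteoblast markers fixed as a list, 12 passed the filter. The control probe sets for actin compare the 3′ end of the transcript with its middle, and a larger difference means relatively less signal away from the 3′ end. That actin difference was 1.39 ± 0.17 on the log2 scale in the normal ALP tumours and 1.79 ± 0.29 in the increased ALP tumours (SD, n = 9 each). It correlated with ALP group at r = 0.667, and 2 increased ALP arrays, replicates 3 and 6, also had high spike-in signal. Levels below are log2(signal + 16), and levels of different probe sets are not set against each other. For each gene the probe set of highest mean is called its chief probe set.

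Radixin had a lower mean with increased ALP at each of its probe sets, with a smaller difference at the chief probe set than at the other pair. At RDX Cfa.2598.1.S1_at the normal ALP tumours had a lowest level of 7.71, a median of 8.41 and a highest of 9.27. The increased ALP tumours had 6.35, 7.48 and 8.16. All 9 increased ALP tumours lay below the normal ALP mean of 8.54 ± 0.59 (SD), and the groups overlapped, with 6 normal ALP tumours above every increased ALP tumour. No probe set of any gene was called in this contrast at an adjusted p under 0.05 (0% of 25754 tested, limma with Benjamini-Hochberg adjustment, with 1582 at an unadjusted p under 0.05), and nothing is read from these member counts. The difference was -1.09 ± 0.25 (SE), a level 2.13-fold higher in the normal ALP group.

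At RDX CfaAffx.22060.1.S1_s_at the levels in normal ALP tumours ran from 7.15 through a median of 8.10 to 8.90. Those in increased ALP tumours ran from 6.40 through 7.28 to 7.87. The normal ALP group was again the higher, with 7 of its 9 tumours above every increased ALP tumour, and the difference was -0.91 ± 0.22 (SE). The chief RDX probe set, CfaAffx.22074.1.S1_s_at, gave 10.88, 11.46 and 11.86 as lowest, median and highest in normal ALP tumours. It gave 10.78, 11.30 and 11.51 in increased ALP tumours. There the groups overlapped over most of their range, and the difference was -0.22 ± 0.12 (SE), with a 95% interval from -0.47 to 0.04. At this chief probe set 8 increased ALP tumours lay below the normal ALP mean, and 3 normal ALP tumours lay above every increased ALP tumour. The size of the radixin difference thus varied among its probe sets, between 0.22 and 1.09 in magnitude on the log2 scale.

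Ezrin probe sets also differed from each other. At the chief probe set, EZR Cfa.1087.1.S1_at, normal ALP tumours ran from 11.99 through 12.63 to 13.13 and increased ALP tumours from 12.11 through 12.42 to 12.96. The groups overlapped almost wholly, with a difference of -0.12 ± 0.14 (SE, 95% interval -0.42 to 0.18). This was one of the steadier members: its highest and lowest tumours stood 2.2-fold apart, and its SD over tumours was at percentile 38.7 of all tested probe sets. At EZR Cfa.20954.1.S1_s_at the group means were 10.56 ± 0.38 and 10.17 ± 0.59 (SD), a difference of -0.40 ± 0.23 (SE). At EZR CfaAffx.1916.1.S1_at normal ALP tumours had 7.32, 7.96 and 8.99 as lowest, median and highest, and increased ALP tumours 6.50, 7.64 and 8.52. The groups overlapped, and the difference was -0.53 ± 0.25 (SE).

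Moesin was the most variable of the 4 genes at its chief probe set and showed no common direction. At MSN CfaAffx.25424.1.S1_at normal ALP tumours ran from 7.58 through 9.77 to 10.71, and increased ALP tumours from 8.89 through 9.35 to 10.70. The tumours spanned 8.78-fold, with an SD at percentile 92.1 of all tested probe sets, and the normal ALP group held both the lowest and the highest tumour. The difference was 0.09 ± 0.37 (SE, 95% interval -0.68 to 0.85), and leaving out single tumours moved it between -0.15 and 0.24. MSN Cfa.18925.1.S1_s_at differed by -0.08 ± 0.28 (SE). MSN CfaAffx.25424.1.S1_s_at was lower with increased ALP, at 6.78, 7.82 and 8.53 against 7.77, 8.39 and 9.18 as lowest, median and highest, a difference of -0.49 ± 0.22 (SE). MSN CfaAffx.25411.1.S1_at had a narrow range, 1.39-fold over all tumours, and a difference of -0.08 ± 0.06 (SE). Its mean level of 6.26 lay just above the filter threshold of 6.15.

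The differences of merlin between the ALP groups ran from 0.02 to 0.24 over its probe sets. NF2 Cfa.8487.1.A1_at, the chief probe set, ran from 6.41 through 7.15 to 7.77 in normal ALP tumours and from 6.97 through 7.23 to 8.04 in increased ALP tumours. The groups overlapped, with a difference of 0.24 ± 0.19 (SE, 95% interval -0.15 to 0.63). NF2 CfaAffx.19131.1.S1_s_at differed by 0.02 ± 0.14 (SE), and its direction turned on single tumours, with -0.06 when increased ALP replicate 7 was left out and 0.08 when normal ALP replicate 1 was. The probe set below the filter, NF2 CfaAffx.19126.1.S1_at, differed by 0.07 ± 0.06 (SE).

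**Figure D1:**
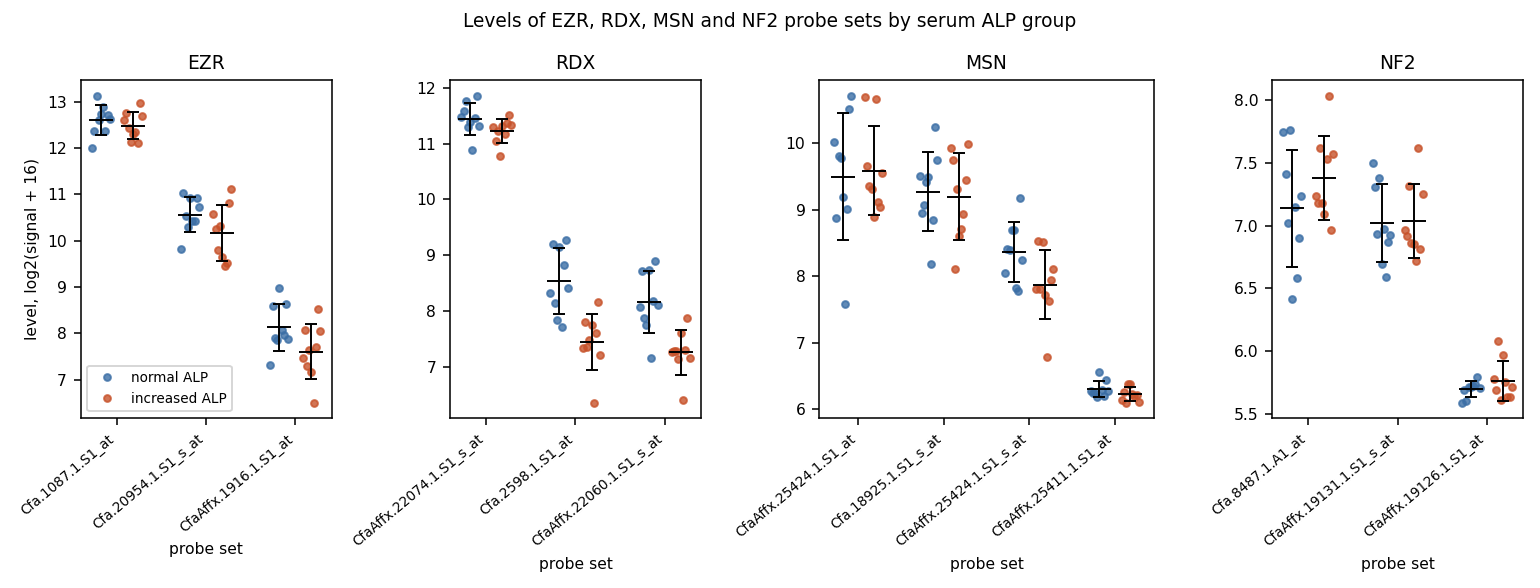
Levels on the log2(signal + 16) scale (y axis) of the 13 probe sets (x axis) of EZR, RDX, MSN and NF2, 1 panel per gene. Points are tumours, blue for normal ALP and orange for increased ALP, and black bars give the mean ± SD (n = 9). The orange points of RDX Cfa.2598.1.S1_at lie lower than most blue points, between 6.35 and 8.16, whereas both groups of RDX CfaAffx.22074.1.S1_s_at share most of their range.

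Over the 12 member probe sets tested, 9 were lower and 3 higher with increased ALP, beside 12486 lower and 13268 higher of all 25754. The median difference was -0.17 beside 0.01 over all 25754 probe sets. Several of the 12 belong to the same gene, so they are not separate cases. The median SD over tumours, which takes in the ALP difference, was 0.53 for the members beside 0.36 over all. Members were unlike in this: their SDs ran from percentile 2.8 of the tested probe sets at MSN CfaAffx.25411.1.S1_at to 92.1 at the chief MSN probe set. No single tumour was the lowest or the highest at every probe set. Increased ALP replicate 6 was the lowest tumour at 5 probe sets: EZR Cfa.20954.1.S1_s_at and CfaAffx.1916.1.S1_at, RDX Cfa.2598.1.S1_at and CfaAffx.22060.1.S1_s_at, and MSN CfaAffx.25424.1.S1_s_at. Normal ALP replicate 8 was the highest at 5, which were all of RDX together with MSN Cfa.18925.1.S1_s_at and CfaAffx.25424.1.S1_s_at. Without increased ALP replicate 6 the differences were -0.95 for RDX Cfa.2598.1.S1_at, -0.80 for RDX CfaAffx.22060.1.S1_s_at, -0.39 for EZR CfaAffx.1916.1.S1_at and -0.35 for MSN CfaAffx.25424.1.S1_s_at. Without both increased ALP arrays of high spike-in signal, replicates 3 and 6, these were -0.92, -0.79, -0.33 and -0.32, and the chief MSN probe set and MSN Cfa.18925.1.S1_s_at differed by -0.03 and 0.15.

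**Figure D2:**
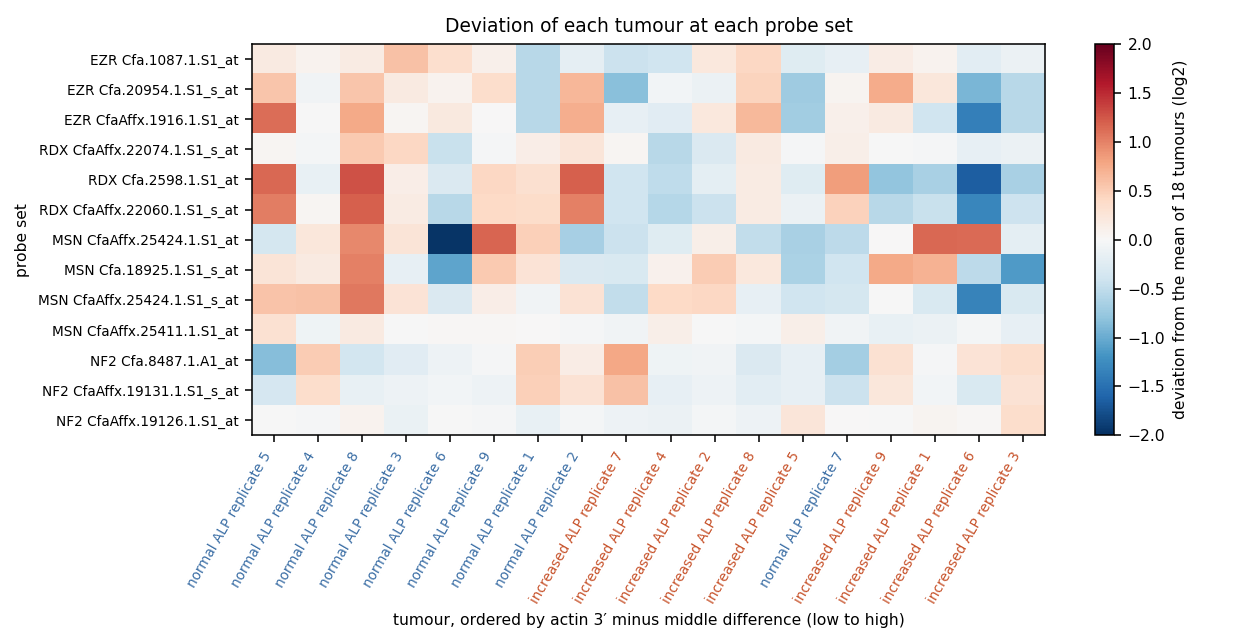
Deviation of each tumour from the mean of 18 tumours on the log2 scale (colour, red above and blue below) for each of the 13 probe sets (rows). Tumours (columns) are ordered from the lowest to the highest actin 3′ minus middle difference, with blue names for normal ALP and orange names for increased ALP. Blue cells gather at the right for RDX Cfa.2598.1.S1_at, EZR CfaAffx.1916.1.S1_at and MSN CfaAffx.25424.1.S1_s_at, where increased ALP replicate 6 was the lowest tumour.

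Since the actin difference moved with ALP group, its relation to each member was measured with the ALP group in the fit, which leaves only variation within the groups. The slope is the change in log2 level per unit of the actin difference. No member was called (adjusted p under 0.05, limma), where 0.113% of the 25754 probe sets were called, 28 falling and 1 rising. That count of 29 rested on single arrays: leaving out replicate 7 of the increased ALP group gave 185, leaving out its replicate 2 or 6 gave 0, and leaving out both arrays of high spike-in signal gave 0. At an unadjusted p under 0.05 there were 3 members of 12, all falling, and 3902 of all probe sets. The member slopes had a median of -0.24 beside -0.03 over all, with 9 below 0 and 3 above. Over all probe sets 13532 were below 0 and 12222 above. On a second actin control pair no member was called, with 0.283% of all probe sets called, and on the corresponding GAPDH difference no member was called, with 0% of all.

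The 3 members were 1 of EZR and a pair of MSN. MSN CfaAffx.25424.1.S1_s_at had a slope of -1.28 ± 0.41 (SE, limma adjusted p = 0.159), EZR CfaAffx.1916.1.S1_at one of -1.13 ± 0.50 (limma adjusted p = 0.299) and MSN CfaAffx.25411.1.S1_at one of -0.27 ± 0.12 (limma adjusted p = 0.305). Without increased ALP replicates 3 and 6 these slopes were -1.14, -0.69 and -0.32. The MSN probe set CfaAffx.25424.1.S1_s_at correlated with the actin difference at r = -0.768 within the normal ALP tumours and at r = -0.563 within the increased ALP tumours. The radixin pair had slopes of -0.84 ± 0.53 at Cfa.2598.1.S1_at and -0.57 ± 0.48 at CfaAffx.22060.1.S1_s_at. These were -0.45 and -0.25 without increased ALP replicate 6, and -0.41 and -0.28 without replicates 3 and 6. For RDX Cfa.2598.1.S1_at the correlation was r = -0.022 in normal ALP tumours and r = -0.630 in increased ALP tumours, a gap that was not tested. The chief probe sets had slopes of -0.06 ± 0.33 for EZR, 0.11 ± 0.28 for RDX and 0.60 ± 0.83 for MSN, none of which had an adjusted p under 0.774 (limma).

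**Figure D3:**
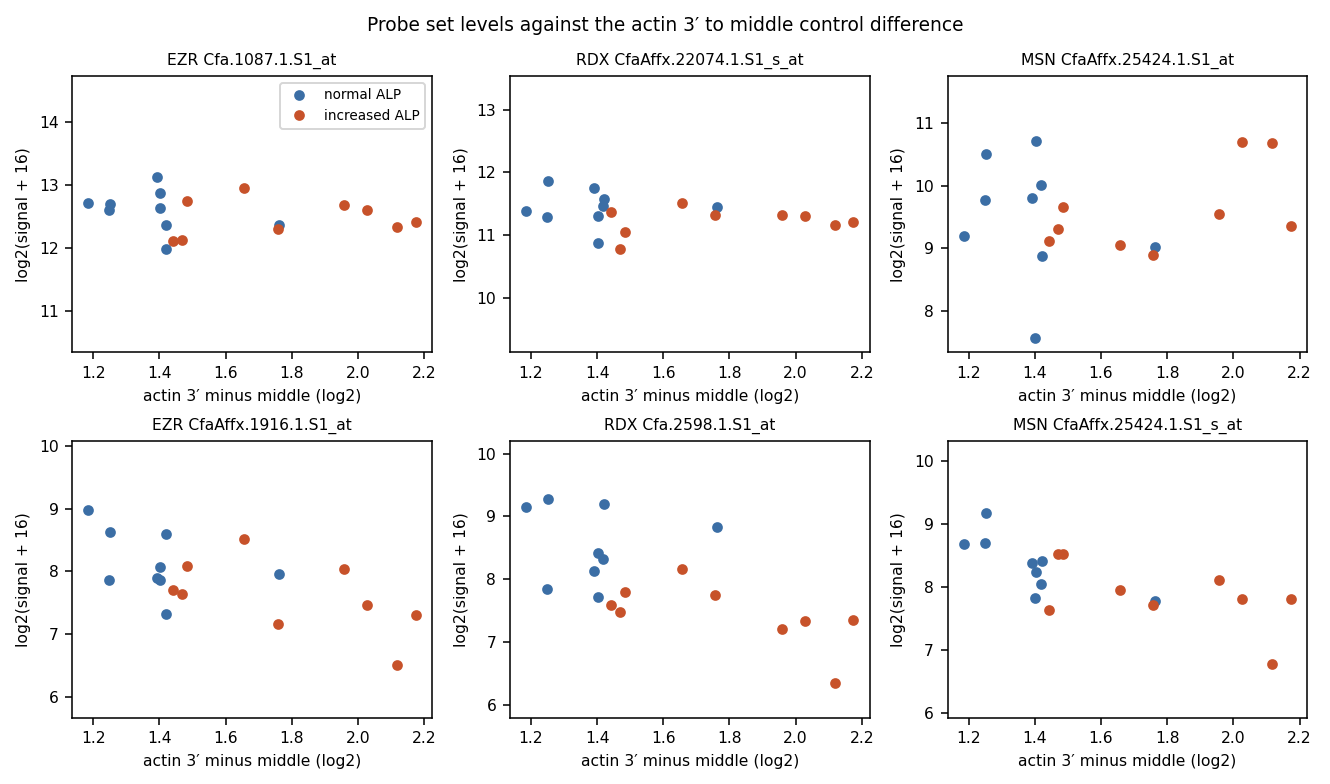
Level on the log2(signal + 16) scale (y axes, each spanning the same width around its mean) against the actin 3′ minus middle difference (x axes, log2) for the chief probe sets of EZR, RDX and MSN (top) and for CfaAffx.1916.1.S1_at of EZR, Cfa.2598.1.S1_at of RDX and CfaAffx.25424.1.S1_s_at of MSN (bottom). Each point is a tumour, blue for normal ALP and orange for increased ALP. Over all tumours the bottom points run downward to the right, and the top points of EZR and RDX run nearly level. The bottom slopes with the ALP group in the fit are -1.13, -0.84 and -1.28. For the bottom RDX probe set r is -0.022 in normal ALP and -0.630 in increased ALP tumours, a gap that was not tested.

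Within a gene, the level of the lower-panel probe set relative to its chief probe set was then related to the actin difference with the ALP group taken off. These 4 relations were chosen after seeing the data, each with the gene's probe set of steepest falling slope on the same actin difference. That choice favoured negative values, so their p-values are a description and no test. The partial correlation was -0.517 for EZR, -0.462 for RDX and -0.486 for MSN, each with an adjusted permutation p of 0.0838, and -0.224 for NF2 CfaAffx.19131.1.S1_s_at against its chief probe set (adjusted permutation p = 0.393). None passed. With ranks in place of levels the adjusted permutation p was 0.398 or higher. Without increased ALP replicates 3 and 6, the tumours farthest from the median of the actin difference, the partial correlations were -0.349, -0.300, -0.388 and 0.041 in the same order of genes.

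The ALP differences were recomputed with the actin difference or the corresponding GAPDH difference in the fit. RDX Cfa.2598.1.S1_at then differed by -0.75 ± 0.32 with actin and -0.99 ± 0.27 with GAPDH (SE). RDX CfaAffx.22060.1.S1_s_at differed by -0.68 ± 0.29 and -0.86 ± 0.24. EZR CfaAffx.1916.1.S1_at differed by -0.08 ± 0.30 with actin and -0.31 ± 0.24 with GAPDH. MSN CfaAffx.25424.1.S1_s_at differed by 0.02 ± 0.25 with actin and -0.35 ± 0.23 with GAPDH. With actin in the fit the other MSN probe sets changed direction, to -0.15 ± 0.50 at the chief, 0.27 ± 0.37 at Cfa.18925.1.S1_s_at and 0.03 ± 0.07 at CfaAffx.25411.1.S1_at, as did NF2 CfaAffx.19126.1.S1_at, to -0.04 ± 0.07. The second actin pair moved MSN Cfa.18925.1.S1_s_at the other way, to -0.37 ± 0.34, and gave -0.42 ± 0.42 at the chief MSN probe set and -0.25 ± 0.27 at MSN CfaAffx.25424.1.S1_s_at. With it the radixin pair differed by -0.80 ± 0.29 and -0.73 ± 0.27. The chief RDX probe set differed by -0.26 in both fits.

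**Figure D4:**
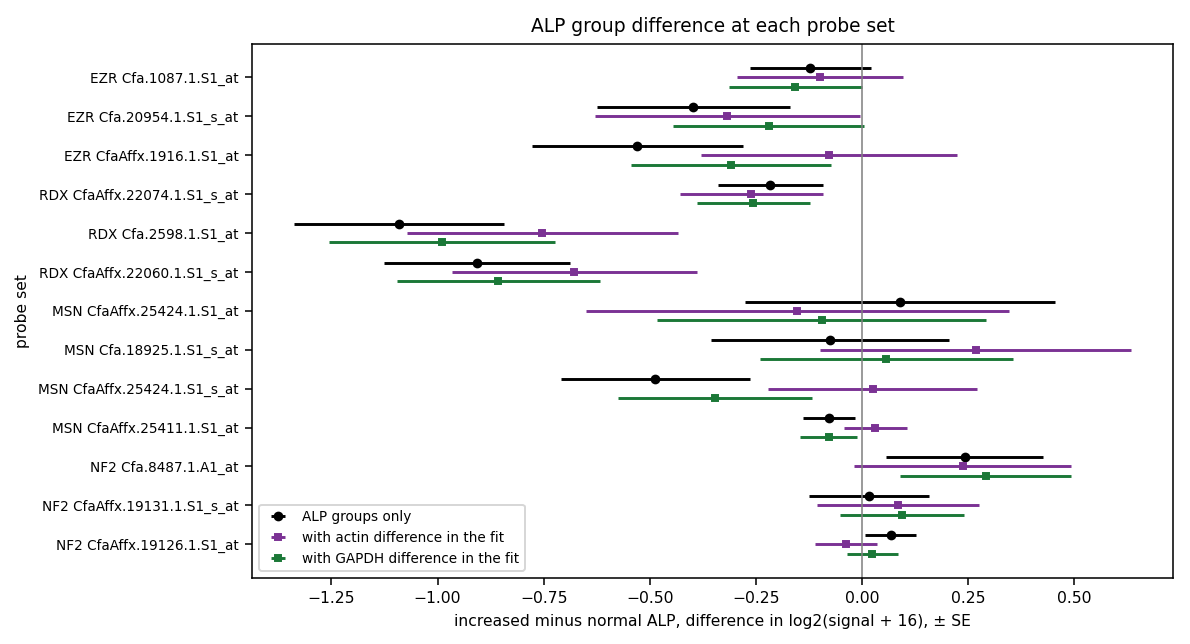
Increased minus normal ALP difference in log2(signal + 16) (x axis, ± SE) at each of the 13 probe sets (y axis), from fits with the ALP groups only (black circles), with the actin difference added (purple squares) and with the GAPDH difference added (green squares). The RDX probe set Cfa.2598.1.S1_at lies at -1.09, -0.75 and -0.99 in these 3 fits, and MSN CfaAffx.25424.1.S1_s_at at -0.49, 0.02 and -0.35.

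Probe sets of one gene were next compared for the order in which they placed the tumours. Of 15 pairs within genes, 12 correlated above 0 and 8 had an adjusted permutation p under 0.05 by Pearson's r, or 9 by Spearman's rho. Without normal ALP replicate 8 the count by r was 5. The levels in these tests kept the ALP difference, in which RDX was known beforehand. The RDX pairs are among those counted, and their p-values are a description and no test. With the ALP group and the actin difference taken off the levels, 5 pairs passed. The radixin pair was the closest, with r = 0.975 and rho = 0.938 (permutation p = 1e-05 for each, the smallest the permutations can give, and adjusted p = 0.00015), and r was 0.957 and 0.947 within the ALP groups. The chief RDX probe set followed the pair less closely, with r = 0.587 for Cfa.2598.1.S1_at (permutation p = 0.0103, adjusted p = 0.0228, rho = 0.678 with p = 0.00261). That r was 0.597 within the normal ALP tumours and 0.234 within the increased ALP tumours, and without the 2 farthest tumours it was 0.487. For the chief probe set and CfaAffx.22060.1.S1_s_at, r was 0.690 (permutation p = 0.00154, adjusted p = 0.00577, rho = 0.798 with p = 0.00013), and 0.598 without the 2 farthest tumours. It was 0.706 in normal ALP and 0.445 in increased ALP tumours.

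The ezrin probe sets Cfa.20954.1.S1_s_at and CfaAffx.1916.1.S1_at placed the tumours alike, with r = 0.814 (permutation p = 5e-05, adjusted p = 0.00025) and rho = 0.769 (p = 0.00028). That r was 0.881 in normal ALP tumours, 0.731 in increased ALP tumours and 0.807 without the 2 farthest tumours. The chief EZR probe set correlated with them at r = 0.586 (permutation p = 0.0106, adjusted p = 0.0228, rho = 0.544 with p = 0.0208) and r = 0.501 (permutation p = 0.0336, adjusted p = 0.0559, rho = 0.651 with p = 0.00448). Without the 2 farthest tumours these were 0.591 and 0.531.

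Moesin probe sets differed in the order they gave. The chief probe set and CfaAffx.25424.1.S1_s_at gave r = 0.056 (permutation p = 0.826, adjusted p = 0.885) and rho = 0.172 (p = 0.492), and -0.063 without the 2 farthest tumours. Within the ALP groups that r was 0.524 in normal and -0.433 in increased ALP tumours. The third probe set, Cfa.18925.1.S1_s_at, correlated with both: r = 0.606 with the chief (permutation p = 0.00729, adjusted p = 0.0219, rho = 0.583 with p = 0.0128) and r = 0.562 with CfaAffx.25424.1.S1_s_at (permutation p = 0.0136, adjusted p = 0.0256, rho = 0.556 with p = 0.0177). Without the 2 farthest tumours these were 0.439 and 0.581, and within the ALP groups the first was 0.904 in normal and 0.265 in increased ALP tumours. The gap between those 2 values was not tested. MSN CfaAffx.25411.1.S1_at passed with none of the others.

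For merlin, Cfa.8487.1.A1_at and CfaAffx.19131.1.S1_s_at correlated at r = 0.857 (permutation p = 2e-05, adjusted p = 0.00015) and rho = 0.808 (p = 0.0002), and at 0.815 without the 2 farthest tumours. Within the ALP groups r was 0.950 and 0.824. The NF2 probe set below the filter correlated with neither, with r = -0.075 against CfaAffx.19131.1.S1_s_at (permutation p = 0.779, rho = -0.234 with p = 0.347).

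**Figure D5:**
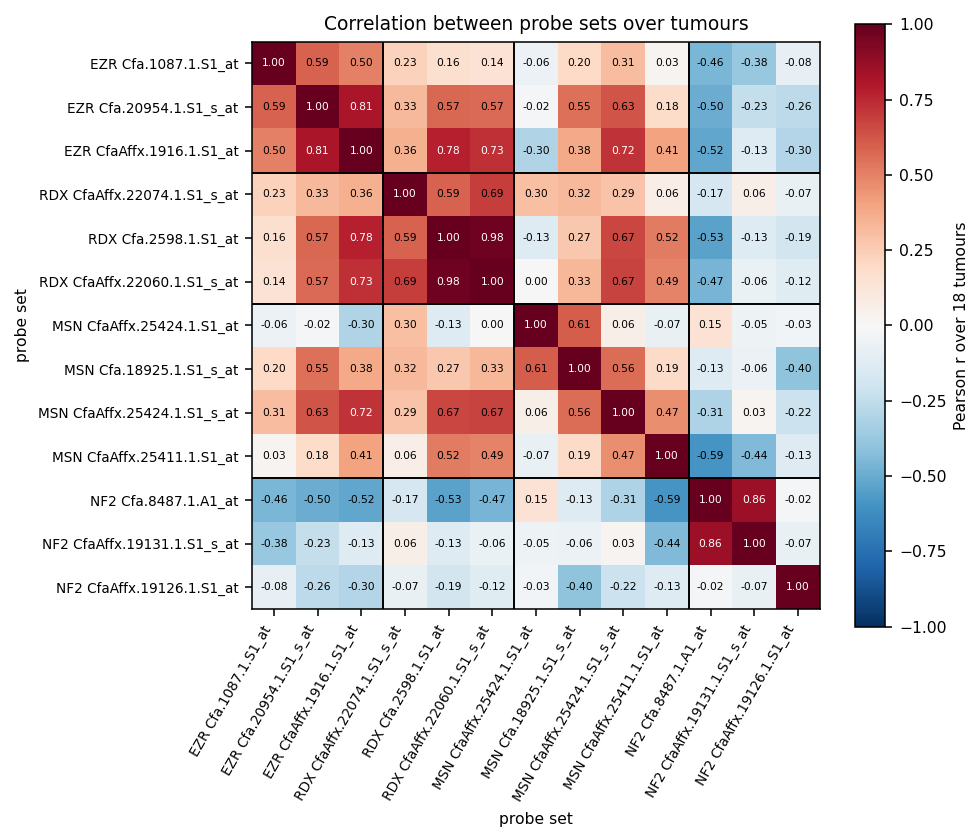
Pearson r over 18 tumours (colour and printed value) for each pair of the 13 probe sets, with black lines between genes. The radixin pair stands at 0.98, the MSN probe sets CfaAffx.25424.1.S1_at and CfaAffx.25424.1.S1_s_at at 0.06, and EZR CfaAffx.1916.1.S1_at correlates at 0.78 with RDX Cfa.2598.1.S1_at.

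Between genes, the 4 chief probe sets gave 6 pairs, none with an adjusted permutation p under 0.05. Ezrin and merlin gave the lowest r, -0.460 (permutation p = 0.0543, adjusted p = 0.326, rho = -0.509 with p = 0.0323 and adjusted p = 0.194), and -0.372 without the 2 farthest tumours. Within the ALP groups that r was -0.382 and -0.502. Radixin and moesin gave the highest r, 0.304 (permutation p = 0.219, adjusted p = 0.656), with rho = -0.030 (p = 0.906).

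The probe sets of EZR, RDX and MSN with the steepest falling slopes varied together across genes, which is given as a description since they were chosen after their values were seen. Over 18 tumours of shared arrays, r was 0.777 for EZR CfaAffx.1916.1.S1_at with RDX Cfa.2598.1.S1_at, 0.723 for that EZR probe set with MSN CfaAffx.25424.1.S1_s_at and 0.667 for the RDX with the MSN probe set. After the ALP group and the actin difference were taken off, these were 0.680, 0.507 and 0.429.

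Ezrin is known from epithelia, moesin from leukocytes and endothelium, and radixin from liver and the inner ear, so the members were related to marker lists of other cell types with the ALP group in the fit. No member was called on any of 11 lists. The share of all 25754 probe sets called was 7.34% for smooth muscle and pericyte markers, 7.26% for fibroblast markers, 7.2% for cell division genes, 4.33% for osteoblast markers, 3.71% for endothelial markers and 3.65% for osteoclast markers. It was 0.792% for macrophage markers, 0.252% for skeletal muscle markers, 0.109% for T and NK cell markers, 0.0388% for neutrophil markers and 0.0272% for fat cell markers. The nearest for moesin was its chief probe set on the endothelial score, with a slope of 0.68 ± 0.27 (SE, limma adjusted p = 0.174). The other MSN probe sets had 0.28 ± 0.23 at Cfa.18925.1.S1_s_at, 0.12 ± 0.19 at CfaAffx.25424.1.S1_s_at and -0.01 ± 0.05 at CfaAffx.25411.1.S1_at on that score. On the macrophage score the chief MSN probe set had a slope of 0.49 ± 0.31 (limma adjusted p = 0.761). All 14 of the 14 endothelial markers passed the filter, and 13 were higher with increased ALP, none called; the score ran from -1.17 to 1.03 in normal ALP tumours and from -0.72 to 1.05 in increased ALP tumours. On the smooth muscle and pericyte score, EZR Cfa.20954.1.S1_s_at had a slope of -0.25 ± 0.11 (limma adjusted p = 0.174) and NF2 Cfa.8487.1.A1_at one of 0.20 ± 0.09 (limma adjusted p = 0.178). EZR CfaAffx.1916.1.S1_at had one of -0.26 ± 0.12 (limma adjusted p = 0.202) and the chief EZR probe set one of -0.04 ± 0.08. The chief MSN probe set had 0.39 ± 0.18 on this score (limma adjusted p = 0.198). Of the 10 epithelial markers only 3 passed the filter, so ezrin could not be set against an epithelial score.

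Several marker lists leaned one way between the ALP groups, with no marker called, beside 5721 higher of all 10717 genes. All 7 neutrophil markers tested of 10 listed, all 6 fat cell markers of 8 and all 8 T and NK cell markers of 14 were higher with increased ALP. Of the fibroblast markers 9 of 11 tested were lower, and of the skeletal muscle markers 7 of 8. The summed neutrophil signal ran from 8.93 to 12.05 on the log2 scale in normal ALP tumours and from 9.12 to 13.18 in increased ALP tumours. The summed fat cell signal ran from 8.74 to 11.90 and from 10.19 to 14.70. Within the ALP groups the radixin pair, Cfa.2598.1.S1_at first, had slopes of -0.36 ± 0.17 and -0.30 ± 0.15 on the fat cell score (limma adjusted p = 0.646 and 0.675). On the neutrophil score they were -0.18 ± 0.18 and -0.16 ± 0.16 (limma adjusted p = 0.743 and 0.731), and 0.06 and -0.06 without increased ALP replicates 3 and 6. No slope was called. On the actin difference within the ALP groups, 6 neutrophil markers rose and 1 fell, with a median slope of 1.54 and none called. Beside this, 5362 of all 10717 genes rose. Whether the neutrophil and actin relations of the radixin pair are separate was not tested.

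The binding partners and regulators of the family were followed through 5 lists, each gene by its probe set of highest mean. None of their members was called between the ALP groups or on the actin slope. Of 12 anchoring partners, the membrane proteins and scaffolds held by the FERM domain, 9 were tested, 3 higher and 6 lower with increased ALP and a median difference of -0.02. ICAM2, an adhesion molecule of endothelium and leukocytes, differed by 0.33 ± 0.22 (SE). Of 16 kinases, phosphatase subunits and lipid kinases that act on these proteins, 11 were tested, 5 higher and 6 lower, with a median of -0.07. PPP1CB, a catalytic subunit of protein phosphatase 1, differed by -0.63 ± 0.20 (SE).

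Of 21 genes of the merlin and Hippo pathway 16 were tested, 9 higher and 7 lower, with a median of 0.02. WWTR1, which encodes the Hippo-regulated coactivator TAZ, differed by -1.03 ± 0.27 (SE, limma adjusted p = 0.608), and STK3, a Hippo kinase, by -0.53 ± 0.21. Of 26 other FERM domain genes 22 were tested, 11 higher and 11 lower, with a median of 0.00. EPB41L2, a membrane skeleton protein, had a slope of -1.35 ± 0.48, and 3 of its 5 other tested probe sets also sloped downward. Of 15 cortical actin genes 11 were tested, of which 1 was higher and 10 lower with increased ALP at a median of -0.11. ARPC5, a subunit of the actin-branching Arp2/3 complex, differed by -0.94 ± 0.32 and had an actin slope of -2.37 ± 0.46 (limma adjusted p = 0.051). Over all 10717 genes 5721 were higher and 4996 lower, with a median of 0.01. The actin slope was falling for 4 of the 9 anchoring partners, 8 of the 11 kinases and phosphatases, 11 of the 16 merlin and Hippo genes, 18 of the 22 other FERM genes and 10 of the 11 cortical actin genes, beside 5355 of all 10717. The median slopes were 0.22, -0.14, -0.11, -0.48 and -0.21 in that order, beside 0.00 over all genes.

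Genes whose levels ran most like each chief probe set over the 18 tumours are given by Pearson r, as a description of the highest and lowest among all tested probe sets with 1 symbol. Ezrin ran most like SMARCA2, a chromatin remodelling ATPase, at r = 0.725, and like SERPINB1 (0.724), OSBPL5 (0.710), JAKMIP2 (0.696) and RIPOR1 (0.689). It ran least like TKFC (-0.740), NOP58 (-0.703) and CACNA1S (-0.677). Radixin ran most like LOC485640 (0.754), CUEDC2 (0.741), the cytoskeletal linker DST (0.731), NFIC (0.722) and WDR48 (0.716), and least like DGAT1 (-0.769), PCYOX1 (-0.750) and ENDOV (-0.728).

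Moesin ran most like TRIM68 (0.866), the myosin light chain gene MYL6 (0.845), IST1 (0.820), YBEY (0.800) and OR2T4D (0.795), and least like CREBBP (-0.886), THAP10 (-0.850) and SENP8 (-0.833). Its highest values exceeded those of the other 3 genes. Merlin ran most like the kinase CSNK1D (0.795), the calponin CNN2 (0.753), CYB561D2 (0.750), PRDX6 (0.743) and PIGR (0.727), and least like MFSD10 (-0.805), CPNE1 (-0.762) and LCAT (-0.756).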

How the data were processed

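The labels' protocols describe Trizol extraction of total RNA and biotin-labelled cRNA made from 10 µg of it. The deposited values are log2 signals of 43035 probe sets, 111 of them controls, made by the authors from 1-colour arrays. MAS5 is named per the submitters' processing notes, with no version or step, so the summary and scaling are not settled. No detection call was used, and some members may lie at background. Signals were made linear, 16 was added and log2 taken. Probe sets under the 40th percentile of the mean over 18 arrays (6.15) were left out, leaving 25754.

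The 9 normal and 9 increased ALP arrays were compared by lmFit and eBayes with a mean-variance trend (limma 3.58.1, R 4.3.3), two-sided, with Benjamini-Hochberg adjustment over all tested probe sets and a threshold of 0.05. The same fit with a covariate gave slopes on the actin and GAPDH differences and on marker scores, a score being the mean deviation of a list's members from the mean of all tumours. Correlations used two-sided tests with 100000 permutations in Python 3.11.15 with SciPy 1.17.1, adjusted within each family, and "2 farthest" are the tumours farthest from the median of the first measure. Plots used matplotlib 3.10.9.

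The members and the gene lists were chosen with earlier results of these data known. Pathway genes named were up to 2 of smallest unadjusted p per list in each of the ALP and actin fits; like genes were the 5 highest and 3 lowest r. One of the lists is not reported here. GEO's platform table gave 1 symbol to 29254 of the 42924 non-control probe sets, several to 439 and none to 13231. RefSeq's genes for assembly UU_Cfam_GSD_1.0, read for names only, held all 4 members. The fits were tested on simulated data. At most 0.0999% of values were equal between 2 arrays, so no array was a copy. The labels do not state that each tumour came from a separate dog, so p-values measure the spread between these samples. The number of arrays limits the precision.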

Additional observations from a re-analysis of the deposited data

Results flagged for a closer look

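At RDX CfaAffx.22060.1.S1_s_at, increased ALP replicate 6 had a level of 6.40, below the nearest tumour of its group at 7.13, a gap of 0.500 of the group's range and more than Dixon's test allows for 9 samples. It was the single case in 26 groups of tumours examined, and chance gives about 1 in 20. Without that array the increased minus normal ALP difference of this probe set was -0.80, beside -0.91 with it.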

How the results depend on the processing

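No member and no probe set was called between the ALP groups under any alternative run: offsets of 1 and 64 or none, quantile normalization, 75th percentile scaling, a filter at the 60th percentile or none, eBayes without a trend or robust, array weights, each covariate, and each array left out. The second actin difference was chosen after seeing the data. RDX Cfa.2598.1.S1_at differed by -1.19 to -0.75 over these. With the actin difference as a covariate MSN CfaAffx.25424.1.S1_s_at differed by 0.025. Without the ALP group in the fit, the slope also takes in the ALP contrast, in which RDX was known beforehand. There 2 members were called on the actin difference (RDX Cfa.2598.1.S1_at and MSN CfaAffx.25424.1.S1_s_at). The share of all probe sets called in that fit is not given beside it, so nothing is read from that count. The slope of RDX CfaAffx.22074.1.S1_s_at was -0.18 in that fit. The slope of EZR Cfa.1087.1.S1_at was 0.0019 after quantile normalization, 0.092 with 75th percentile scaling, 0.067 without increased ALP replicates 3 and 6, 0.38 on the GAPDH difference and 0.17 on the second actin difference, and that of MSN CfaAffx.25411.1.S1_at was 0.011 on the GAPDH difference. Without replicates 3 and 6 the neutrophil slope of RDX Cfa.2598.1.S1_at was 0.061. The cause was not tested.

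Leaving out each array gave slopes from -0.26 to 0.060 for EZR Cfa.1087.1.S1_at and from -0.075 to 0.20 for RDX CfaAffx.22074.1.S1_s_at. It gave 5 to 9 pairs within genes, r from -0.111 to 0.375 for MSN CfaAffx.25424.1.S1_at with CfaAffx.25424.1.S1_s_at, and r from -0.361 to 0.045 for NF2 CfaAffx.19131.1.S1_s_at with CfaAffx.19126.1.S1_at. The 29 probe sets called on the actin difference became 0 to 185, and 1 with 75th percentile scaling. On residuals from ALP group and actin 5 pairs passed.

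Tissue numbers 1 to 9 occur in both groups, but did not pair the tumours: same-numbered deviations correlated from -0.164 to 0.270, 4 of 9 over 0.1, and 0 of 18 tumours correlated best with their own number. With the number as a replicate block no ALP call was made, the slopes of RDX Cfa.2598.1.S1_at and CfaAffx.22060.1.S1_s_at were 0.057 and 0.24, and 1 pair within genes passed. Blocked r was -0.56 for RDX CfaAffx.22074.1.S1_s_at with Cfa.2598.1.S1_at, -0.062 for the MSN pair above and 0.066 for the NF2 pair above.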
